A study of Oncorhynchus mykiss with 9 samples.

Results

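The miR-199 and miR-214 entries of trout liver are 6 of the 1413 miRNA entries in a small RNA survey of liver from wild-type rainbow trout. They were taken by name, as every entry whose identifier begins with miR-199- or miR-214-, and the names were chosen with earlier results of these data known. They are miR-199-x, miR-199-y, miR-199-z, miR-214-x, miR-214-y and miR-214-z. The survey holds 3 libraries from fish under acute hypoxia, 3 from fish under moderate hypoxia and 3 from control fish, and the design text gives 12 h for the hypoxia. All 9 libraries carry the wild-type genotype and come from whole liver tissue, so cells of every type in the organ contributed RNA. Oxygen levels, fish age and the link from library to fish are stated by neither the labels nor the file. If the 3 libraries of a group were made from the same fish or a pool, p-values reflect technical spread only. The reoxygenation stage, the mRNA and the long non-coding RNA of the study are not analysed here.

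A miRNA is cut from a hairpin precursor whose arms can each give a mature strand, and the seed, bases 2 to 8 from the 5′ end, does most of the pairing with target mRNAs. In mammals miR-199 and miR-214 are made from a shared long transcript that runs antisense to a dynamin gene, and they are known from fibroblasts, smooth muscle and the stellate cells of the liver, where miR-214 rises during fibrosis. In mammalian heart cells the 5′ arm of miR-199 is known to target the mRNA of the hypoxia factor HIF-1α. Genome positions of the trout genes, and so whether they form a cluster in trout, were not analysed here, and in whole tissue the origin of the entries in stroma was not tested.

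The sequences are shown first because the results turn on which arm and which variant is counted. They are copied from the deposited file, run 5′ to 3′ and carry the seed in capitals.
miR-199-x: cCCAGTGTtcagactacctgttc
miR-199-z: cCCAGTGTtcagactacgtgttc
miR-199-y: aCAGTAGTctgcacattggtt
miR-214-x: tGCCTGTCtacacttgctgtga
miR-214-y: aCAGCAGGcacagacaggcagt
miR-214-z: tACAGCAGgcacagacaggcagaa
The x entries carry the seeds of the 5′ arms that mammals share, and miR-199-y and miR-214-y those of the 3′ arms. Each x entry holds a run complementary to the y entry of its hairpin, of 8 bases for miR-199 and 9 for miR-214. The entry miR-199-z is 23 bases long like miR-199-x and differs from it by the substitution C18G, counted from 1 at the 5′ end of miR-199-x, so the pair share a seed. The entry miR-214-z repeats miR-214-y from 1 base further upstream, differs by T22A in the numbering of miR-214-y and runs 1 base longer at the 3′ end. Its seed is therefore another than that of miR-214-y. No other entry of the file has the sequence of any of the 6. Beyond the shared seed of miR-199-x and miR-199-z, the seed of miR-199-y recurs in 1 entry predicted from the reads, and the seeds of the 3 miR-214 entries recur nowhere else.

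Abundances are given in TPM, here the reads of an entry scaled to the total of its library and not to length. The reads behind the tables numbered 8443328 to 16515715 per library, and 3 reads, taken as the limit of detection, correspond to 0.182 to 0.355 TPM. The liver miRNA miR-122-x had the highest mean of all 1413 entries and took 405699 to 460731 TPM under acute hypoxia, 504743 to 525228 TPM under moderate hypoxia and 307409 to 500523 TPM in control libraries. The test covered the 481 entries whose mean reached 1 TPM, and all 6 are among them. The libraries of moderate hypoxia are not alike: 46 entries were over 4 times higher in both libraries 1 and 2 than in any other library, and none of the 6 is among them. Moderate hypoxia library 3 lay between libraries 1 and 2 for 87.8% of the 98 entries at 100 TPM or more, while the same share for every other library against its own group was at most 67.3%. It lay between them for 5 of the 6 entries, and acute hypoxia library 3 likewise lay between the others of its group for 5 of the 6. Of the 6, only miR-199-x, miR-199-y and miR-214-y averaged 100 TPM or more, so these counts and the shares cover different levels. Changes of the 4 main entries, the arm ratios, the summed abundance and the counts of calls are therefore also given without libraries 1 and 2.

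The 6 entries covered a wide range of levels. By mean abundance miR-199-x ranked 2 of 1413, directly after miR-122-x, and held 596290 to 1088966 reads per library. The entry miR-199-y ranked 17, miR-214-y 96, miR-199-z 158, miR-214-x 175 and miR-214-z 359. The last rested on 3 to 31 reads per library. Together the 6 took 10.7% ± 1.46 of the summed TPM under acute hypoxia, 7.67% ± 0.529 under moderate hypoxia and 8.99% ± 1.62 in control libraries (SD, n = 3 each). The miR-199 arms outweighed the miR-214 arms by 617-fold to 882-fold under acute hypoxia, by 792-fold to 1154-fold under moderate hypoxia and by 519-fold to 697-fold in control libraries.

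**Figure D1:**
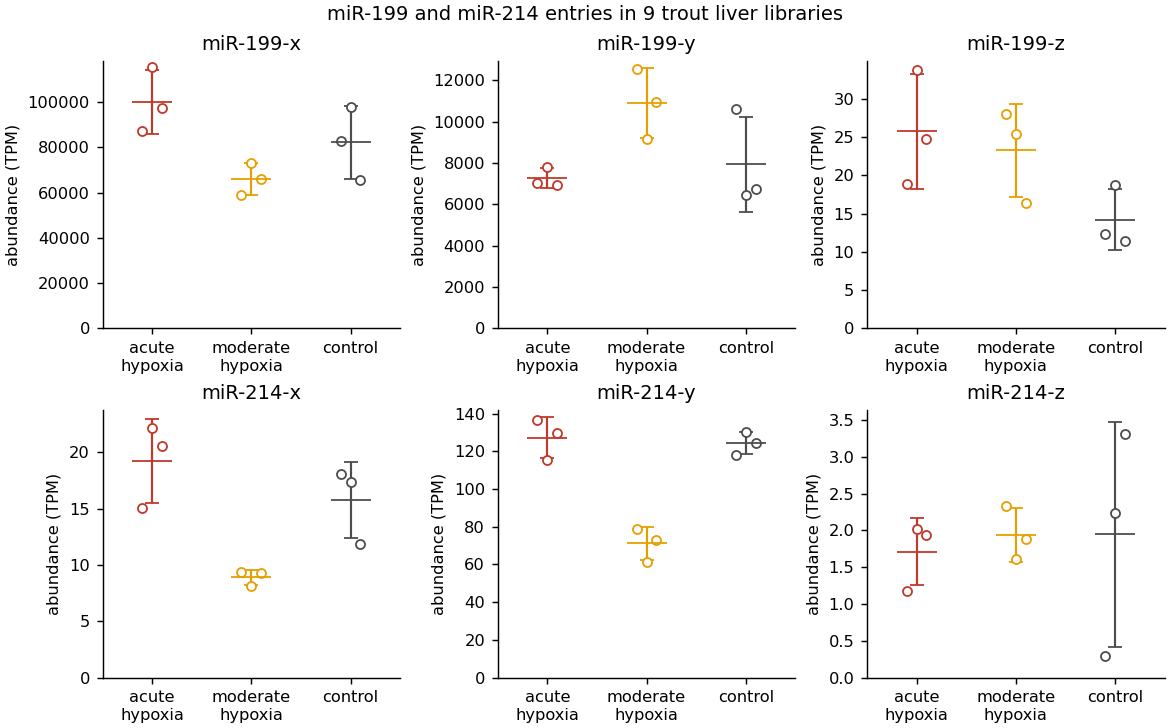
Abundance in TPM (vertical axes, each from 0) of the 6 entries by group, with 1 circle per library and a bar for the mean and SD of 3 libraries. The moderate hypoxia libraries of miR-214-y lie at 61.6 to 78.9 TPM, below all acute hypoxia and control libraries, and those of miR-199-y at 9173 to 12562 TPM, above all acute hypoxia libraries.

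Both miR-214 arms were lower under moderate hypoxia than in the other groups. For miR-214-y, the 3′ arm and the main product of the hairpin in these libraries, acute hypoxia libraries 1, 2 and 3 had 136.6, 115.5 and 129.8 TPM, moderate hypoxia libraries 78.9, 61.6 and 73.1 TPM and control libraries 118.3, 130.4 and 124.5 TPM. All 3 moderate hypoxia libraries lay below the other 6, and the acute hypoxia and control libraries overlapped. The mean under moderate hypoxia was 0.572 times that of control, a log2 change of -0.80 ± 0.192 (SE) with an adjusted p of 0.0145 from limma over the 481 entries. The mean under acute hypoxia was 1.79 times that of moderate hypoxia, a log2 change of 0.83 ± 0.192 with an adjusted p of 0.0101.

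The 5′ arm, miR-214-x, followed the same order at a lower level. Acute hypoxia libraries had 15.03, 22.1 and 20.6 TPM, moderate hypoxia libraries 9.35, 8.13 and 9.26 TPM and control libraries 18.1, 17.3 and 11.9 TPM. Again no moderate hypoxia library reached any of the other 6, while acute hypoxia and control libraries overlapped. The log2 change was -0.74 ± 0.241 for moderate hypoxia against control (adjusted p 0.0437, limma) and 1.02 ± 0.241 for acute against moderate hypoxia (adjusted p 0.0114), a ratio of means of 2.16. Against control, neither arm passed the test under acute hypoxia, where the log2 change was 0.28 (95% interval -0.25 to 0.81) for miR-214-x and 0.030 (95% interval -0.39 to 0.45) for miR-214-y.

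The call for acute against moderate hypoxia in miR-214-x held when each of the 9 libraries was left out in turn, with adjusted p from 0.00875 to 0.0474. The call in miR-214-y was lost without moderate hypoxia library 2, with an adjusted p of 0.0513 for acute against moderate hypoxia and of 0.0654 for moderate hypoxia against control. The call for miR-214-x in moderate hypoxia against control was lost on leaving out control library 1 or 2, any of the moderate hypoxia libraries, or acute hypoxia library 2 or 3, with adjusted p of up to 0.124. With moderate hypoxia libraries 1 and 2 both left out, the log2 changes against control were -0.69 for miR-214-x and -0.76 for miR-214-y, and neither passed (adjusted p 0.418 and 0.281), and the 1 library left is there taken to vary as libraries elsewhere do. In the same fit acute against moderate hypoxia gave 0.96 for miR-214-x and 0.79 for miR-214-y (adjusted p 0.218 and 0.245). In whole tissue, fewer cells of a type and less of an RNA per cell cannot be told apart.

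The arms of miR-199 stood in opposite orders under acute and moderate hypoxia, though only the 5′ arm passed the test. For miR-199-x, the 5′ arm, acute hypoxia libraries had 87298, 115299 and 97217 TPM, moderate hypoxia libraries 59132, 73118 and 65935 TPM and control libraries 82942, 98019 and 65704 TPM. Every acute hypoxia library exceeded every moderate hypoxia library, and control libraries overlapped with both. The entry was higher under acute than under moderate hypoxia by 0.59 ± 0.200 (SE) on the log2 scale (adjusted p 0.0457, limma), a ratio of means of 1.51. This call was lost on leaving out any of the moderate hypoxia libraries or acute hypoxia library 2 or 3, with adjusted p of up to 0.159, and without moderate hypoxia libraries 1 and 2 the change was 0.59 with an adjusted p of 0.427. Neither comparison with control passed for miR-199-x: the log2 change was -0.30 (adjusted p 0.296) under moderate hypoxia and 0.29 (adjusted p 0.645) under acute hypoxia.

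For miR-199-y, the 3′ arm, acute hypoxia libraries had 7019, 7826 and 6957 TPM, moderate hypoxia libraries 12562, 9173 and 10945 TPM and control libraries 10597, 6452 and 6759 TPM. All acute hypoxia libraries lay below all moderate hypoxia libraries, and control library 1 lay apart from the other control libraries, among the moderate ones. The log2 change was -0.57 ± 0.224 for acute against moderate hypoxia (adjusted p 0.0709, limma) and 0.48 ± 0.224 for moderate hypoxia against control (adjusted p 0.128), and neither passed. Without moderate hypoxia libraries 1 and 2 they were -0.59 (adjusted p 0.427) and 0.50 (adjusted p 0.553). Without control library 1 both passed, at -0.57 (adjusted p 0.0204) and 0.71 (adjusted p 0.0225). In the authors' deposited table miR-199-y alone of the 6 had a false discovery rate under 0.05, which was 0.0201 with a log2 fold change of -0.58 for acute against moderate hypoxia. That table gave false discovery rates of 0.103 and 0.279 for miR-214-x and miR-214-y in the same comparison, and of 0.517 and 0.472 for moderate hypoxia against control, from a test that the file does not name.

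**Figure D2:**
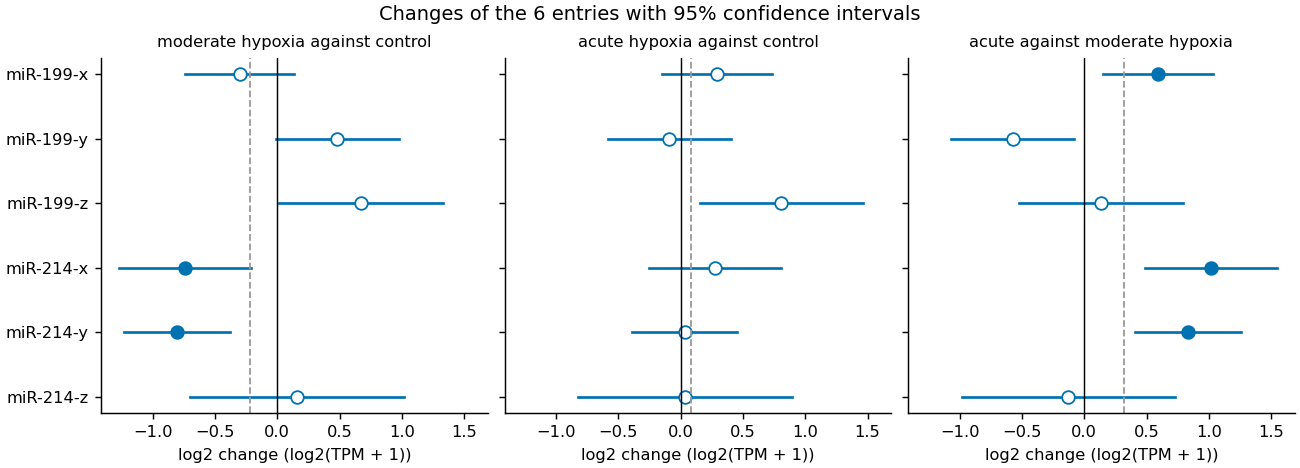
Log2 changes (horizontal axis, log2(TPM + 1) scale) of the 6 entries in 3 comparisons with 95% intervals from limma; filled circles have an adjusted p under 0.05 and dashed lines mark the median change of the 481 tested entries. Both miR-214 arms are lower under moderate hypoxia than in control (-0.74 and -0.80) and higher under acute than moderate hypoxia (1.02 and 0.83), and no circle is filled for acute hypoxia against control.

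Of the 6, 2 were called lower and 0 higher in moderate hypoxia against control, in which 25.6% of all 481 tested entries were called, 17.7% lower and 7.90% higher. In acute against moderate hypoxia 3 of the 6 were called, all higher, beside 30.6% of all tested entries, 22.9% higher and 7.69% lower. Groups of the 6 that did not overlap numbered 2 in moderate hypoxia against control, beside 43.2% of all entries, and 4 in acute against moderate hypoxia, beside 52.8%. In acute hypoxia against control limma called 0 of the 6 and 0% of the 481 entries. At an unadjusted p under 0.05 it had 1 of the 6, miR-199-z, and 47 of the 481. The 2 comparisons with moderate hypoxia share its 3 libraries, so they are not separate evidence.

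The median change of all 481 tested entries was -0.22 (log2) for moderate hypoxia against control and 0.32 for acute against moderate hypoxia, in the units as deposited. Relative to that shift miR-214-y stood at -0.58 and miR-214-x at -0.52 in moderate hypoxia against control, miR-199-x at -0.083 and miR-199-y at 0.70. In acute against moderate hypoxia miR-214-x stood at 0.70, miR-214-y at 0.52, miR-199-x at 0.28 and miR-199-y at -0.89. These keep the signs of the changes as deposited, but the shift depends on the entries taken. Over the 195 entries that averaged at least 10 TPM it was -0.50 in moderate hypoxia against control and 0.49 in acute against moderate hypoxia. Beside -0.50, miR-199-x at -0.30 lay above the shift, while miR-214-x (-0.74) and miR-214-y (-0.80) remained below it. Several calls changed with the scaling. Rescaling by a trimmed mean of M values, by the median of ratios, without miR-122-x or by quantiles left miR-214-y between -0.58 and -0.45 in moderate hypoxia against control (adjusted p 0.0561 to 0.132) and between 0.41 and 0.62 in acute against moderate hypoxia (adjusted p 0.0768 to 0.154), past the threshold in none. Under the same 4 scalings miR-199-y passed in all, at 0.70 to 1.03 (adjusted p 0.00619 to 0.0332) for moderate hypoxia against control and at -0.94 to -0.80 (adjusted p 0.0104 to 0.0166) for acute against moderate hypoxia. The call of miR-199-x in acute against moderate hypoxia was lost under all 4, at 0.14 to 0.37 (adjusted p 0.202 to 0.519, limma). It was also lost with no filter. The entry miR-214-x remained called higher in acute against moderate hypoxia under 3 of the scalings, with 0.68 to 0.84. Under quantiles it was not called, with 0.66 and an adjusted p of 0.0683. In moderate hypoxia against control the calls among the 6 then fell on miR-199 in place of miR-214: the trimmed mean gave 2 of the 6 higher, miR-199-y and miR-199-z, and 0 lower. Over all 481 entries it gave 52 higher and 60 lower, beside 38 higher and 85 lower in the units as deposited. For acute against moderate hypoxia it gave 62 higher and 67 lower, beside 110 higher and 37 lower.

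**Figure D3:**
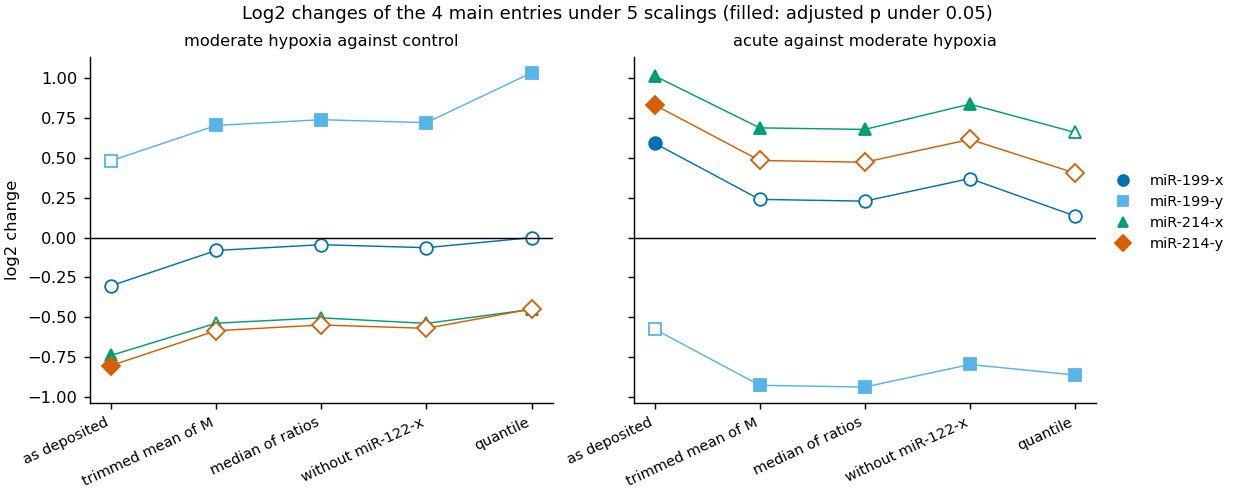
Log2 change (vertical axis) of the 4 main entries as deposited and under 4 other scalings, for moderate hypoxia against control (left) and acute against moderate hypoxia (right), with filled symbols where the adjusted p from limma is under 0.05. The miR-214 symbols stay below 0 on the left and above 0 on the right under each scaling, miR-199-y stays on the other side, and which symbols are filled changes with the scaling.

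A ratio of arms within a library does not depend on a factor applied to the whole library, though quantile normalization can change it. That method sets values by rank. It left miR-199-x, ranked 2 in each group, with log2 changes of 0 in moderate hypoxia against control and 0.14 in acute against moderate hypoxia. The ratio of miR-199-x to miR-199-y was 12.4, 14.7 and 14.0 in acute hypoxia libraries, 4.71, 7.97 and 6.02 in moderate hypoxia libraries and 7.83, 15.2 and 9.72 in control libraries. The means were 13.7 ± 1.17, 6.23 ± 1.64 and 10.9 ± 3.82 (SD, n = 3 each). No moderate hypoxia library reached an acute hypoxia library, and the control libraries ran from the moderate into the acute range and beyond. The log2 difference of acute minus moderate hypoxia was 1.17, with an exact two-sided permutation p of 0.1, which is the smallest that 3 against 3 libraries allow, and 0.4 after adjustment over 12 ratios and sums. The x to y ratios of all 67 miRNA numbers with both an x and a y entry tested were fitted in limma. These pairs, here called arm pairs, were matched by number and suffix alone. Their sequences were not checked as arms of a hairpin, except for miR-199 and miR-214. In acute against moderate hypoxia 20.9% of them were called, 7 higher and 7 lower, and miR-199 was among them with an adjusted p of 0.0172, ranked 11 of 67 by size. Leaving out 1 library at a time gave 0.98 to 1.36, and the call did not hold on removal of moderate hypoxia library 1 (adjusted p 0.108) or 3 (0.0652) or of acute hypoxia library 2 (0.0642) or 3 (0.0747). Under quantile normalization the difference was 0.998 (adjusted p 0.0485), and with moderate hypoxia libraries 1 and 2 left out it was 1.18 and did not pass (adjusted p 0.175).

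Against control, the miR-199 arm ratio did not pass in either group. The log2 difference was -0.78 for moderate hypoxia minus control (exact permutation p 0.2, adjusted p in limma 0.0925, beside 23.9% of arm pairs called) and 0.38 for acute hypoxia minus control (exact permutation p 0.4, beside 0% called). The comparison of moderate hypoxia with control passed in limma without control library 1, at -0.996 with an adjusted p of 0.0288, and under quantile normalization, at -1.03 with an adjusted p of 0.0366. The quantile value is the change of miR-199-y alone, 1.03 with the sign turned, because miR-199-x was held at a change of 0. In the next sentence no normalization was applied. With moderate hypoxia libraries 1 and 2 left out it was -0.80 (adjusted p 0.425). For miR-214, whose y arm is the larger, the ratio of y to x was 9.08, 5.21 and 6.30 in acute hypoxia libraries, 8.44, 7.57 and 7.89 in moderate hypoxia libraries and 6.55, 7.52 and 10.5 in control libraries. These groups overlapped in every comparison, and the log2 differences of its x to y ratio were 0.18 for acute minus moderate hypoxia (95% interval -0.44 to 0.81 in limma), 0.25 for acute hypoxia minus control (-0.38 to 0.87) and 0.064 for moderate hypoxia minus control (-0.56 to 0.69). None passed, and with moderate hypoxia libraries 1 and 2 left out the differences that involve moderate hypoxia were 0.17 for acute minus moderate hypoxia and 0.071 for moderate hypoxia minus control. The difference between the shifts of the miR-199 and miR-214 ratios was itself not tested.

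**Figure D4:**
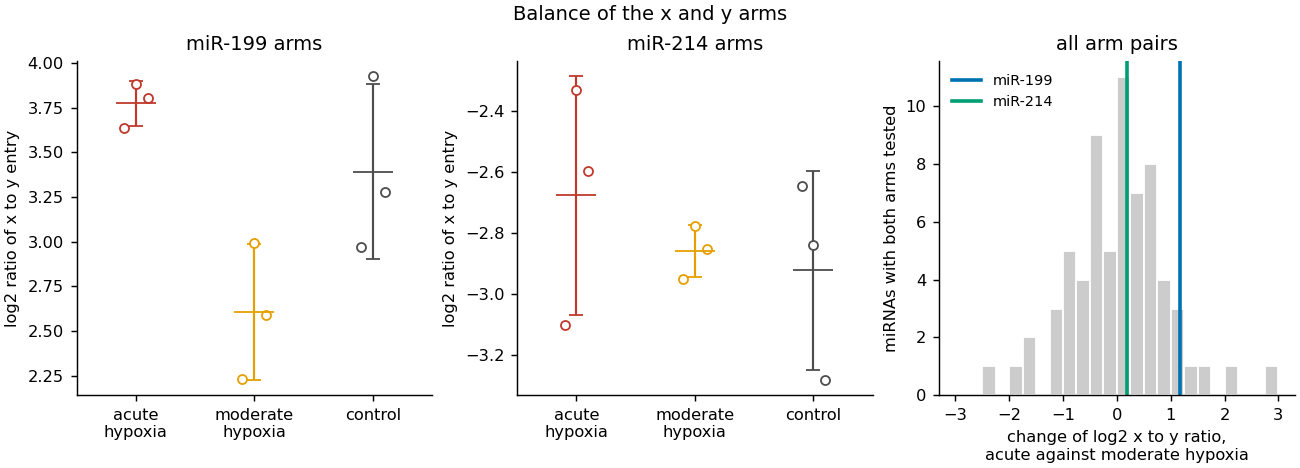
Log2 ratio of the x to the y arm for miR-199 (left) and miR-214 (middle), with circles for libraries and bars for the mean and SD of 3 libraries, and the change of that ratio between acute and moderate hypoxia for all 67 arm pairs (right, number of miRNAs). The miR-199 ratio is higher in every acute than in every moderate hypoxia library, and its change of 1.17 lies near the upper end of the 67 pairs while that of miR-214, 0.18, lies near the middle.

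Summed over all 6 entries the abundance was 94489, 123299 and 104351 TPM in acute hypoxia libraries, 71813, 82389 and 76981 TPM in moderate hypoxia libraries and 93688, 104640 and 72614 TPM in control libraries. This sum is almost all miR-199-x. Acute and moderate hypoxia did not overlap, with a log2 difference of 0.47 (exact permutation p 0.1, adjusted p 0.4), while moderate hypoxia minus control was -0.21 (exact permutation p 0.3) and changed sign under each of the other 4 scalings. The log2 ratio of the miR-214 arms to the miR-199 arms was -9.26, -9.77 and -9.41 in acute hypoxia libraries, -9.61, -10.15 and -9.82 in moderate hypoxia libraries and -9.41, -9.44 and -9.01 in control libraries. All moderate hypoxia libraries lay below all control libraries, by 0.58 on average (exact permutation p 0.1, adjusted p 0.4), so miR-214 was the lower relative to miR-199 there, and the difference was -0.57 under quantile normalization. With moderate hypoxia libraries 1 and 2 left out it was -0.53, and the sum differed by 0.47 for acute minus moderate hypoxia and by -0.21 for moderate hypoxia minus control. In the log2 ratio of the miR-214 to the miR-199 arms, with all 9 libraries, acute hypoxia overlapped with both moderate hypoxia and control.

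The variant miR-199-z was a small share of miR-199-x. Acute hypoxia libraries had 18.8, 33.8 and 24.7 TPM, moderate hypoxia libraries 28.0, 25.4 and 16.4 TPM and control libraries 12.4, 18.8 and 11.5 TPM, from 104 to 378 reads per library. All acute hypoxia libraries lay above the control libraries, the nearest pair at 18.83 and 18.80 TPM, and the groups of 11.2% of all tested entries likewise did not overlap in this comparison. The log2 change was 0.81 ± 0.298 (adjusted p 0.331, limma), and under moderate hypoxia against control it was 0.67 ± 0.298 (adjusted p 0.116), so neither passed. As a percent of miR-199-x it was 0.0216, 0.0293 and 0.0254 in acute hypoxia libraries, 0.0474, 0.0347 and 0.0249 in moderate hypoxia libraries and 0.0149, 0.0192 and 0.0174 in control libraries. Both hypoxia groups lay above control on that measure, which was not tested. Whether miR-199-z is the product of a separate gene copy or of changed bases in reads of miR-199-x was not tested.

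The variant miR-214-z had 1.18, 2.01 and 1.94 TPM in acute hypoxia libraries, 2.34, 1.61 and 1.88 TPM in moderate hypoxia libraries and 0.290, 2.24 and 3.31 TPM in control libraries. Control library 1 held 3 reads of it, at the limit of detection. No comparison passed for miR-214-z, with log2 changes of 0.16 under moderate hypoxia and 0.034 under acute hypoxia, each against control, and of -0.13 between acute and moderate. Its percent of miR-214-y was 0.866, 1.74 and 1.49 in acute hypoxia libraries, 2.96, 2.62 and 2.57 in moderate hypoxia libraries and 0.245, 1.72 and 2.65 in control libraries. At 14 to 31 reads in the hypoxia libraries these shares are coarse.

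Other entries share runs of bases with the 6, or are complementary to them, and are shown because such reads are counted apart from the 6. Whether they come from the same trout hairpins was not analysed here. In the lines below the capitals mark the bases shared with miR-199-x in the first, those shared with miR-214-x in the second, and the run of 20 bases over which miR-3120-y and miR-214-x are complementary in the last pair.
predicted entry over miR-199-x: CAGTGTTCAGACTACCTGTTCatt
predicted entry over miR-214-x: CTGTCTACACTTGCTGTGcaga
miR-3120-y: tgCACAGCAAGTGTAGACAGGC
miR-214-x: tGCCTGTCTACACTTGCTGTGa
The first starts 2 bases later than miR-199-x, shares 21 bases with it and averaged 3.18 TPM over the 9 libraries. The second starts 3 bases later than miR-214-x and shares 18 bases, and the file lists it under 4 names, none above a mean of 0.192 TPM. In human, miR-3120 is known to come from the strand opposite miR-214 at the same locus. Here miR-3120-y had 18, 7 and 1 reads in acute hypoxia libraries, 0, 5 and 1 in moderate hypoxia libraries and 4, 5 and 5 in control libraries. Its sums of 26, 6 and 14 reads are too few for a comparison, and single libraries decide them.

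The 6 entries did not form 1 pattern over the 9 libraries. Likeness was measured as the root mean square difference of log2(TPM + 1) values after each entry was centred on its own mean, over the 9 libraries, as a description. The arms miR-214-x and miR-214-y differed by 0.26, and miR-199-x differed from miR-214-x by 0.25, while miR-199-x and miR-199-y differed by 0.57. The median difference from the other entries that averaged 10 TPM or more was 0.46 for miR-199-x and 0.61 for miR-199-y, so miR-199-y stood farther from miR-199-x than the median entry did, while miR-199-x stood nearer to miR-199-y than the median entry did. The entries most like miR-199-x were miR-181-x at 0.059, miR-140-y at 0.13 and miR-15-x at 0.14. Those most like miR-199-y were miR-458-y at 0.14, the liver miRNA miR-192-x at 0.17 and miR-375-y at 0.25. For miR-214-x they were the endothelial miR-126-x at 0.15, miR-722-x at 0.16 and miR-30-x at 0.16, and for miR-214-y they were miR-7132-x at 0.19, miR-722-y at 0.20 and miR-181-y at 0.21. The least distances were larger for the variants: miR-101-x at 0.24, miR-143-x at 0.28 and miR-7132-y at 0.29 for miR-199-z, and miR-122-x at 0.30, miR-462-x at 0.31 and miR-16-x at 0.35 for miR-214-z. All values share the scaling of each library, which alone can make entries alike.

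Other miRNAs known from stroma and smooth muscle in mammals, namely miR-143, miR-145, miR-140 and miR-152, gave 9 tested entries. Of these 1 was called higher and 0 lower in moderate hypoxia against control, 0 in acute hypoxia against control, and 1 higher and 0 lower in acute against moderate hypoxia, with median log2 changes of -0.29, 0.17 and 0.31 beside -0.22, 0.084 and 0.32 over all tested entries. Over the 195 entries that averaged at least 10 TPM, as all 9 did, the medians were -0.50, 0.084 and 0.49. Of all tested entries 7.90% were called higher and 17.7% lower in the first of these comparisons. In the second 0% were called, and in the third 22.9% higher and 7.69% lower. The entry called under moderate hypoxia was miR-143-x, at 394.8 ± 59.7 TPM under moderate hypoxia and 218.1 ± 84.7 TPM in control libraries (SD, n = 3 each; log2 change 0.91, adjusted p 0.0321, limma). The entry called higher in acute against moderate hypoxia was its other arm, miR-143-y, at 17738 ± 2879 TPM under acute and 11262 ± 789 TPM under moderate hypoxia (log2 change 0.64, adjusted p 0.0312). The call of miR-143-x was lost on removal of control library 3, of acute hypoxia library 3 or of any 1 moderate hypoxia library. With miR-199 and miR-214 included, the list had 1 entry higher and 2 lower in moderate hypoxia against control as deposited, and 4 higher and 0 lower under the trimmed mean. In acute against moderate hypoxia it had 4 higher and 0 lower as deposited, and 1 higher and 2 lower under the trimmed mean. Over the 9 fits that left out 1 library, its calls ran from 0 to 4 in moderate hypoxia against control. They ran from 1 to 5 in acute against moderate hypoxia, beside 60 to 129 and 72 to 183 over all tested entries in the 2 comparisons. Leaving out moderate hypoxia library 2 left 0 and 1 calls in these comparisons, and leaving out libraries 1 and 2 of that group left 0 in both. So miR-143, a smooth muscle miRNA, also differed by arm. Its ratio of y to x was 47.2, 46.9 and 59.2 in acute hypoxia libraries, 26.96, 31.7 and 27.7 in moderate hypoxia libraries and 74.0, 52.4 and 74.2 in control libraries, with every moderate hypoxia library below the other 6. Fitted over the 67 arm pairs, the x to y ratio of miR-143 was called higher in moderate hypoxia against control (1.198, adjusted p 0.00743, limma) and lower in acute against moderate hypoxia (-0.82, adjusted p 0.0412). With 1 library left out the first call held at 1.11 to 1.36, while the second was lost on removal of any 1 acute or moderate hypoxia library, at -0.71 to -0.89 (adjusted p 0.0531 to 0.163). For miR-143 as for miR-199, the smaller arm made up more of the pair in every moderate than in every acute hypoxia library. The other miRNAs of the list did not share this. For miR-152 the ratio of y to x was 106, 111 and 116 in acute hypoxia libraries, 192.2, 193.4 and 175.5 in moderate hypoxia libraries and 111, 110.3 and 68.8 in control libraries, so its smaller arm, x, made up less of the pair in every moderate hypoxia library than in any other. Its x to y ratio was called lower in moderate hypoxia against control (-0.97, adjusted p 0.0161, limma) and did not pass in acute against moderate hypoxia (0.74, adjusted p 0.0638). For miR-145 and miR-140 the x to y ratio passed in no comparison, with 0.025 and -0.23 in moderate hypoxia against control and 0.052 and 0.33 in acute against moderate hypoxia. Under quantile normalization the call of miR-152 in moderate hypoxia against control was lost (-0.39, adjusted p 0.348, limma). That of miR-143 was lost in acute against moderate hypoxia (-0.62, adjusted p 0.0912) and held in moderate hypoxia against control (1.02, adjusted p 0.00927). With moderate hypoxia libraries 1 and 2 left out, the changes against control were 1.25 for miR-143 and -0.89 for miR-152. Those rest on 1 library of moderate hypoxia. Summed TPM of the 11 entries of this list other than miR-199 and miR-214 was 21458 to 29534 under acute hypoxia, 20217 to 21614 under moderate hypoxia and 18092 to 24254 in control libraries, so moderate hypoxia lay within the control range, unlike miR-214. The log2 difference of moderate hypoxia minus control of that sum was -0.057 as deposited and 0.16 to 0.29 under the other 4 scalings. The sum joins entries of both directions. In it miR-152-y had 6495 ± 31.4 TPM under moderate hypoxia and 4143 ± 1128 TPM in control libraries (log2 change 0.69, adjusted p 0.0750, limma). It and miR-143-x were higher. The entries miR-143-y (-0.29), miR-145-x (-0.58), miR-145-y (-0.60), miR-140-x (-0.45), miR-140-y (-0.22), miR-152-x (-0.29) and miR-152-z (-0.24) were lower, none called.

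Several lists of miRNAs known from other cells of the liver were, like miR-214, lowest under moderate hypoxia, with acute hypoxia and control overlapping. The 2 arms of miR-126, known from endothelium, summed to 13401 to 19700 TPM under acute hypoxia, 6719 to 7379 TPM under moderate hypoxia and 11982 to 16161 TPM in control libraries. The 6 entries of miR-451, miR-144 and miR-486, known from red blood cells, summed to 2156 to 3122 TPM under acute hypoxia, 679 to 872 TPM under moderate hypoxia and 2017 to 3512 TPM in control libraries. The 12 leukocyte entries, mostly miR-146-x, summed to 13291 to 18441 TPM, 10702 to 10965 TPM and 14977 to 21396 TPM in those groups. The 10 hepatocyte entries, mostly miR-122-x, summed to 441996 to 497677 TPM, 550718 to 575723 TPM and 361303 to 533423 TPM. The first 3 of these lists thus lay below the other groups under moderate hypoxia in all libraries and the hepatocyte list above them. That separation held under the other 4 scalings for endothelium, with -0.76 to -0.70 (log2) for moderate hypoxia minus control, for red blood cells, with -1.59 to -1.47, and for hepatocytes. The hepatocyte difference was 0.31 as deposited, 0.53 under the trimmed mean, 0.57 under the median of ratios and 0.58 without miR-122-x. Under quantiles, which set miR-122-x by its rank, it was only 0.035. The leukocyte sum, at -0.67 as deposited, stood at -0.45 to -0.22 and overlapped with another group under the trimmed mean, the median of ratios and quantiles. Its main entry, miR-146-x, had 9893 ± 91.0 TPM under moderate hypoxia and 16316 ± 3452 TPM in control libraries. In that comparison miR-150-x (log2 change 1.15, adjusted p 0.111, limma) and miR-146-y (0.55, adjusted p 0.0704) were higher without passing. The other tested leukocyte entries were lower. In moderate hypoxia against control, where 17.7% of all tested entries were called lower and 7.90% higher, 1 of 2 endothelial entries was called lower and 0 higher, 4 of 6 red blood cell entries lower and 1 higher, and 2 of 8 leukocyte entries lower and 0 higher. The red blood cell entry called higher was miR-486-x, with 41.7, 15.9 and 29.2 TPM in moderate hypoxia libraries and 0.193, 0.01 and 0.110 TPM in control libraries, where 0.01 stands for no read (adjusted p 5.75e-06, limma). All its control values lie under the limit of detection, as do its acute hypoxia values of 0.0845, 0.01 and 0.114 TPM, and it ran against the other calls of its list. Of the 10 hepatocyte entries 1 was called higher and 1 lower. The entry called higher was miR-192-x (log2 change 0.61, adjusted p 0.0445, limma). It had 38313 ± 1901 TPM under moderate hypoxia and 25472 ± 5456 TPM in control libraries. The entry called lower was miR-194-x, with 1081 ± 19.3 TPM under moderate hypoxia and 2647 ± 338 TPM in control libraries (SD, n = 3 each; log2 change -1.28, adjusted p 0.00173), and miR-122-x, which makes up most of the hepatocyte sum, did not pass (log2 change 0.32, adjusted p 0.255). None of the entries of these 4 lists was without reads in a whole group. The part of such cells in the miR-214 difference was not tested.

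**Figure D5:**
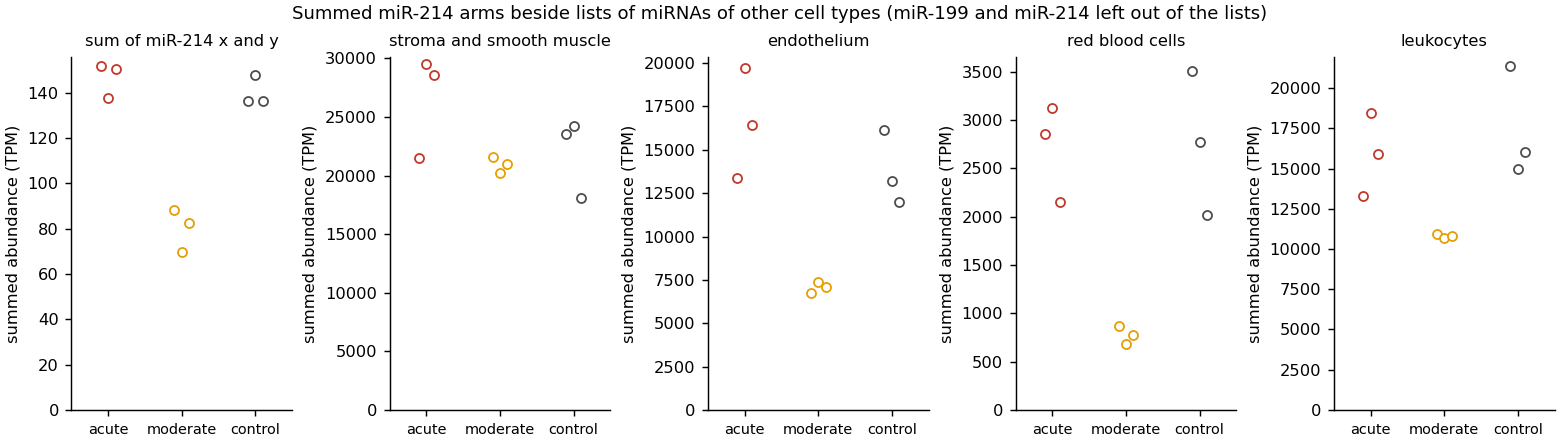
Summed abundance in TPM (vertical axes, each from 0) of the miR-214 x and y arms and of 4 lists of miRNAs known from other cell types in mammals, with 1 circle per library. The miR-214 arms, the endothelial, the red blood cell and the leukocyte lists are lowest in all 3 moderate hypoxia libraries, while the stroma list overlaps with control. The stroma list joins entries that were higher and entries that were lower under moderate hypoxia than in control.

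Of the remaining lists of cell types, 3 did not set moderate hypoxia apart from control. The bile duct epithelium list summed to 3429 to 7561 TPM under acute hypoxia, 3433 to 5592 TPM under moderate hypoxia and 3245 to 5892 TPM in control libraries. The striated muscle list stayed under 78 TPM in every library. The nervous tissue list summed to 3436 to 7247 TPM, 5617 to 6994 TPM and 1903 to 7545 TPM in those groups, and overlapped between all. The pancreas list was low and an exception, at 135 to 170 TPM under acute hypoxia, 174 to 190 TPM under moderate hypoxia and 108.8 to 141.7 TPM in control libraries, so its moderate hypoxia libraries lay above the rest.

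Both pathways in which miR-199 and miR-214 are usually cited were set out as lists of miRNAs known from mammals. Over all 481 tested entries, 7.90% were called higher and 17.7% lower in moderate hypoxia against control. In acute against moderate hypoxia 22.9% were called higher and 7.69% lower. The liver fibrosis and stellate cell list had 24 tested entries besides the 6, of which 1 was called higher and 3 lower in moderate hypoxia against control, and 6 higher and 3 lower in acute against moderate hypoxia. Its median log2 changes without the 6 were -0.48 and 0.34, beside -0.22 and 0.32 over all tested entries. Over the 195 entries that averaged at least 10 TPM, as most entries of both lists did, the medians were -0.50 and 0.49. Among them miR-29-x, whose family restrains collagen in mammalian stellate cells, had 228 ± 40.9 TPM under acute hypoxia, 143.6 ± 24.8 TPM under moderate hypoxia and 241 ± 32.9 TPM in control libraries (SD, n = 3 each). It was called lower in moderate hypoxia against control (log2 change -0.75, adjusted p 0.0319, limma). The 1 entry called higher there was miR-30-y (log2 change 0.96, adjusted p 0.00530, limma). It had 3665 ± 237 TPM under moderate hypoxia and 1901 ± 289 TPM in control libraries. In acute against moderate hypoxia miR-30-y was called lower (-1.09, adjusted p 0.00202) and miR-30-x higher (0.96, adjusted p 0.0132). The entry miR-21-y, of a miRNA that rises in mammalian fibrosis, had 481 ± 74.2 TPM under acute and 198.98 ± 30.2 TPM under moderate hypoxia (log2 change 1.27, adjusted p 0.0301). The more abundant arm, miR-21-x, did not pass there, with 13514 ± 2591 TPM under acute and 10270 ± 1643 TPM under moderate hypoxia (0.39, adjusted p 0.358). It had 19543 ± 9714 TPM in control libraries. Nor did miR-21-z pass in acute against moderate hypoxia (-0.045, adjusted p 0.925). The entry miR-222-y went the other way from miR-21-y, with 1858 ± 732 TPM under acute and 4380 ± 263 TPM under moderate hypoxia (log2 change -1.31, adjusted p 0.0163). The list of miRNAs that respond to hypoxia in mammals had 28 tested entries without miR-199, of which 0 were called higher and 10 lower in moderate hypoxia against control, and 11 higher and 0 lower in acute against moderate hypoxia, beside the shares over all tested entries given above. Its median log2 changes were -0.59 and 0.56, beside the -0.50 and 0.49 of entries that averaged at least 10 TPM. It includes miR-210-y, of a miRNA known to be induced by HIF in mammals, with 158 ± 33.6 TPM under acute hypoxia, 30.3 ± 1.39 TPM under moderate hypoxia and 124.1 ± 46.8 TPM in control libraries (SD, n = 3 each). The entry miR-210-z was likewise lower under moderate hypoxia than in control (log2 change -1.49, adjusted p 0.00139, limma). The other arm, miR-210-x, was not, with 130 ± 28.1, 136 ± 3.25 and 113 ± 27.2 TPM in those groups. It did not pass against control under moderate hypoxia (log2 change 0.30, adjusted p 0.384). In acute hypoxia against control limma called 0 entries of either list. Both lists depended on the scaling and on single libraries, as counts with miR-199 and miR-214 included show. The calls over all tested entries moved too: with 1 library left out, 123 became 60 to 129 in moderate hypoxia against control. In acute against moderate hypoxia 147 became 72 to 183. Shares of all entries called in each such fit are not set beside the list counts below. In moderate hypoxia against control the fibrosis list had 1 entry higher and 5 lower as deposited, and 4 higher and 1 lower under the trimmed mean. Its 6 calls became 2 without moderate hypoxia library 1 or 2, and 10 without control library 3. In acute against moderate hypoxia its 9 higher and 3 lower became 4 higher and 5 lower under the trimmed mean, and its 12 calls became 5 without moderate hypoxia library 2, 6 without acute hypoxia library 2 and 7 without acute hypoxia library 3. The hypoxia list, with 0 higher and 10 lower in moderate hypoxia against control, had 2 higher and 8 lower under the trimmed mean and 6 lower without moderate hypoxia library 1. Its 12 higher in acute against moderate hypoxia became 7 higher and 3 lower under the trimmed mean, and 7 higher without moderate hypoxia library 2 or acute hypoxia library 3. Over the 9 fits that left out 1 library, the hypoxia list had 6 to 13 calls in moderate hypoxia against control. In acute against moderate hypoxia it had 7 to 16, and the fibrosis list 5 to 15. With moderate hypoxia libraries 1 and 2 left out the fibrosis list had 0 calls in both comparisons, and the hypoxia list 1 lower against control and 4 higher in acute against moderate hypoxia.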

How the data were processed

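Small RNA libraries were made from total RNA (Trizol, standard Illumina protocols, per the labels). Aligner, counter, predictor and genome build: not given in the sources used here. In the deposited file, 3 tables are stacked. Their abundance signal is named TPM per the file headers, and 0.01 stands for no read. The authors' log2 fold changes and p-values come from an unnamed test. The 2 tables that hold moderate hypoxia were joined over 1413 entries, and the third (1139 entries) served as an alternative. Low TPM values were whole multiples of 1 step per library, which gave the reads; 100% lay within 0.1 read. Limits of 3 reads cover counting error only, and reads are not independent molecules.

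The scale was log2(TPM + 1), and entries averaging under 1 TPM were left out. limma-trend (limma 3.58.1, R 4.3.3) was fitted to 3 groups over all 9 libraries, with Benjamini and Hochberg adjustment per comparison at 0.05. Fold changes of low entries are understated by the pseudocount. Ratios and sums had exact two-sided permutation tests (scipy 1.17.1, Python 3.11.15), adjusted over 12. Sequences were compared as text. The method was also run on simulated reads with a fixed spread. The outcome is not given here and does not bear on how the calls depend on scaling or on single libraries.

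Members and lists were chosen with earlier results of these data known. Lists match the miRNA number and take every arm. The naming rule took all 6 entries, their 3 most alike entries of at least 10 TPM, neighbours in abundance, entries that share sequence or seed, and of each list the entries past the threshold and up to 4 abundant ones; of the neighbours and list entries only some are printed. The overlapping entries and miR-143 arm ratios were chosen after their values were seen.

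Alternatives were a pseudocount of 0.1 or of 5, a filter at 10 TPM or none, 4 other scalings (trims of 30% and 5% for the trimmed mean), a replicate block, 6 libraries, distinct sequences, each library left out, and, chosen after seeing the data, moderate hypoxia libraries 1 and 2 left out, limma over arm pairs and quantiles for ratios.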

Additional observations from a re-analysis of the deposited data

How the results depend on the processing

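Directions of the called entries held under every setting run, but their calls did not. Of the 6 entries, 1 was called in moderate hypoxia against control with a pseudocount of 5, with no filter, without miR-122-x, with the replicate block or with only the 6 libraries compared, and 0 with moderate hypoxia libraries 1 and 2 left out; leaving out 1 library gave 0 to 2. In acute against moderate hypoxia the count was 1 under quantile normalization, there miR-199-y lower, 0 with those libraries left out, and 1 to 4 with 1 library left out. A count of 2 for moderate hypoxia against control under the trimmed mean, median of ratios and quantile scalings is of other entries, miR-199-y and miR-199-z higher. The 1 called without miR-122-x is likewise miR-199-y higher (0.72, adjusted p 0.0245, limma). Over all entries, the calls of moderate hypoxia against control, 123 as reported, were 59 with no filter, 75 at a mean of at least 10 TPM, 81 with only 6 libraries, 9 with moderate hypoxia libraries 1 and 2 left out and 60 to 129 with 1 library left out. Those of acute against moderate hypoxia, 147 as reported, were 83 at a mean of at least 10 TPM, 28 with moderate hypoxia libraries 1 and 2 left out and 72 to 183 with 1 library left out; 0 calls in acute hypoxia against control held throughout.

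The summed abundance in moderate hypoxia against control reversed to 0.0067 under the trimmed mean, 0.043 under the median of ratios, 0.024 without miR-122-x and 0.12 under quantiles. The miR-214 x to y ratio reversed to -0.0082 with a pseudocount of 5 in acute against moderate hypoxia, and in moderate hypoxia against control ran from -0.12 (without control library 3) to 0.20 with 1 library left out. The miR-199 ratio passed in limma over arm pairs at 1.17 in acute against moderate hypoxia (0.98 to 1.36 with 1 library left out, 1.24 without acute hypoxia 1), and in moderate hypoxia against control only without control library 1 (-0.996) and under quantiles (-1.03; 0.998 in acute against moderate hypoxia), with -0.996 to -0.518 over the libraries left out. The quantile value of -1.03 is the change of miR-199-y alone, because quantiles left miR-199-x at a change of 0 in that comparison. Under quantiles the miR-199 ratio reversed to -0.036 in acute hypoxia against control and the miR-214 ratio to -0.0027 in moderate hypoxia against control. The cause was not tested for any of these.

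Reversals among single entries were of values that never passed. In acute hypoxia against control miR-214-z gave -0.027 with a pseudocount of 5, -0.066, -0.046 and -0.11 under the trimmed mean, median of ratios and quantiles, and -0.48 to 0.39 with 1 library left out (-0.48 without control 1, -0.050 without acute hypoxia 2, -0.031 without acute hypoxia 3). There miR-214-y gave -0.09995, -0.075 and -0.042 under the same scalings, -0.0049 without control 1, -0.022 without acute hypoxia 1 and up to 0.098 on leaving out others, and miR-199-y gave 0.17 under quantiles, 0.14 without control 1 and down to -0.22 on leaving out others. In acute against moderate hypoxia miR-199-z gave -0.20, -0.21, -0.079 and -0.35 under the 4 scalings, -0.087 without moderate hypoxia 3, -0.071 without acute hypoxia 2 and up to 0.33 otherwise, and miR-214-z gave 0.023 without acute hypoxia 1. In moderate hypoxia against control miR-214-z gave -0.35 without control 1 and up to 0.52 otherwise.

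Same-numbered libraries did not clearly deviate together (r from -0.206 to 0.264, 1 of 9 pairs over 0.1). No pairing by number was seen, though 3 libraries per group are too few to exclude it. With the replicate block 117, 0 and 140 entries were called. The planned edgeR test on recovered reads was left out, because the columns as deposited write no read as 0.01, which is not a multiple of the step. How it would change the calls was not tested. A mean of at least 10 TPM leaves no value for miR-214-z. Entries of a few reads, such as miR-214-z, are limited by depth, and all calls by 3 libraries per group.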
